A study of Mus musculus with 6 samples.

Results

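Genes of the osteocyte and of phosphate regulation were measured in tibial cartilage of C57BL/6 mice on Agilent 1-colour expression arrays. The mice were 3 ADAM10 flox/flox-Col2a1-Cre animals, called mutants here, and 3 control animals, for which the labels give the word control and no alleles. In the mutants the Col2a1 promoter drives Cre in chondrocytes and their precursors, where it acts on floxed copies of Adam10, the gene of a membrane protease. The labels give no age and no floxed exon. The group consists of 7 genes, Dmp1, Phex, Mepe, Fgf23, Enpp1, Sost and Pdpn, chosen by name among the 20972 gene symbols that could be assigned to probes. All non-control probes whose RefSeq accession belongs to these genes were taken, which gave 9 of the 55681 probes, each with 1 spot per array. Fgf23 and Pdpn had 2 probes each. Of the 7 genes, 6 passed the filter on dim probes (well above background on at least 3 of 6 arrays) and were tested, and Sost did not pass.

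Osteocytes are cells of the osteoblast lineage that have become enclosed in bone matrix, and they act as an endocrine source of phosphate control. DMP1 and PHEX restrain the release of FGF23, a hormone that makes the kidney excrete phosphate, and loss of either gene causes phosphate wasting with poorly mineralized bone. Mineral formation in the growth plate is held in check by pyrophosphate, which ENPP1 produces, and sclerostin, the product of Sost, blocks Wnt signalling in bone-forming cells. Podoplanin, the product of Pdpn, is a membrane glycoprotein of early osteocytes, lymphatic vessels and several fibroblasts.

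Values are given as log2 of the processed signal minus the array's 75th percentile, so that 0 is the level of that percentile. A level cannot be set against that of another probe. All 6 arrays shared 1 slide, with mutant 1 and the 3 controls on its first row. Spots well above background made up 62.4% to 65.4% of each array and 0 were saturated. Mutant 2 and control 1 stood apart: over the 25494 tested features, mutant 2 correlated with the other arrays at 0.969 to 0.983 and control 1 at 0.969 to 0.986, while the other 4 arrays correlated with each other at 0.990 to 0.993. Results of the tested member genes are therefore also given without these 2 arrays. Adam10, the targeted gene, read 0.15, -1.70 and 0.31 in mutants 1 to 3, against 1.61, 1.58 and 1.21 in controls 1 to 3, a difference of -1.88 (SE 0.53).

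For Dmp1 and Phex, osteocyte genes that sit above FGF23 in phosphate control, the signal of each mutant lay below that of all 3 controls. The 4 other tested genes, Mepe, Enpp1, Pdpn and Fgf23, overlapped between the groups, with differences between -0.05 and 0.05. Fgf23 was tested by its bright probe, while its other probe stayed at background. Which of them follows Fgf23 mRNA was not tested. No gene passed the threshold adjusted over all features, and neither did any feature on the array (smallest adjusted p 0.388, limma). In this tissue RNA, fewer cells of a type and less RNA per cell cannot be told apart.

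Dmp1 encodes an acidic phosphoprotein of the mineralizing matrix, secreted by osteocytes. Its log2 signal was 0.93, -1.25 and 1.45 in mutants 1 to 3, against 1.60, 2.37 and 2.10 in controls 1 to 3. The groups did not overlap, but mutant 3 lay close below control 1 and mutant 2 lay far below all other arrays. In intensity units the probe read 1201, 252.1 and 1394 in the mutants, against 1802, 2877 and 2189 in the controls. Dmp1 averaged 0.38 ± 1.43 in mutants and 2.03 ± 0.39 in controls (SD, n = 3 each). Mutants were 3.13-fold lower, by -1.65 on the log2 scale (SE 0.68), with a 95% interval from -3.29 to -0.0032. In limma the unadjusted p was 0.0497 and the adjusted p 0.987. An exact two-sided permutation test gave 0.1, which is the limit of this design. Without mutant 2 the difference was -0.84 (unadjusted limma p 0.0296), and without both mutant 2 and control 1 it was -1.05 (unadjusted limma p 0.00909). Leaving out any 1 of controls 1 to 3 or mutant 1 raised the unadjusted limma p above 0.05, to 0.122 at most without control 2.

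Phex, an X-linked gene for a membrane endopeptidase whose loss in mice and people causes hypophosphatemic rickets, showed the same separation. Its log2 signal was 0.0049, -0.55 and 0.59 in mutants 1 to 3, against 0.90, 1.65 and 1.22 in controls 1 to 3. Mutant 2 was again lowest and control 2 highest, as for Dmp1, but no mutant stood as far from its group as mutant 2 did for Dmp1. The mean was 0.016 ± 0.57 in mutants and 1.25 ± 0.38 in controls (SD, n = 3 each). Mutants were 2.36-fold lower, by -1.24 on the log2 scale (SE 0.33, 95% interval from -2.03 to -0.45), with an unadjusted p of 0.00821 and an adjusted p of 0.987 in limma and an exact permutation p of 0.1. Without mutant 2 the difference was -0.95 (unadjusted limma p 0.0195), and without mutant 2 and control 1 it was -1.13 (unadjusted limma p 0.0130). The Y-linked gene Ddx3y read 2.02 and 2.15 on mutants 1 and 2 and 2.06 on both controls 2 and 3, against -4.57 on mutant 3 and -7.34 on control 1. Xist ran the other way, at 2.05 on mutant 3 and 1.88 on control 1, and read -3.66 or lower on the other arrays. Among the 4 arrays with Ddx3y signal, the difference of Phex was -1.70. That set leaves out mutant 3, the highest mutant for Phex, and control 1, the lowest control. Those arrays, 1 per group, lay closer together, at 0.59 for mutant 3 and 0.90 for control 1.

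**Figure D1:**
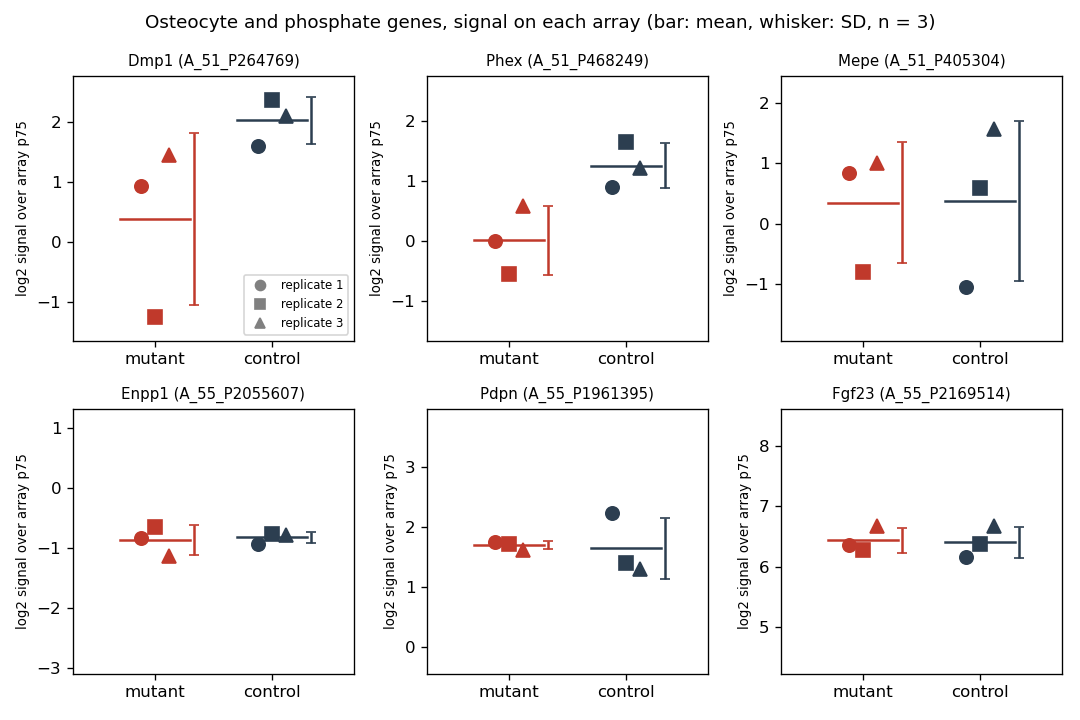
Log2 signal relative to the array's 75th percentile for the brightest probe of each of the 6 tested genes, with mutants on the left and controls on the right of each panel. Symbols mark the replicate number, horizontal bars the mean and whiskers the SD (n = 3); every panel spans the same number of log2 units, and the groups separate for Dmp1 and Phex and overlap for Mepe, Enpp1, Pdpn and Fgf23.

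Across all 25494 tested features, 3.75% had all mutants below all controls, 1.89% were lower at an unadjusted p below 0.05, 1.71% were at least 2-fold lower at any p, and 0.624% met both of these. Of the 6 tested members, 2 met each of these rules, and 0 were higher by any of them, where the background was 5.19% for groups that did not overlap, 1.55% for an unadjusted p below 0.05 and 0.212% for a 2-fold difference and 0.110% for that p with a 2-fold difference. Without mutant 2 both genes were still at an unadjusted p below 0.05, but 0 were 2-fold lower. Their groups necessarily stay separated when an array is left out. The count at an unadjusted p below 0.05 was 1 when mutant 1 or any control was left out. The median difference of the 6 members was -0.03, against 0.04 over all features, and 4 of 6 were below 0, against 40.0% of all features. Only 0.275% of all features had a lower difference than Dmp1 and 0.977% a lower one than Phex. The genes were chosen with earlier results of these arrays known, so these counts are a description.

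The start regions of the genes are shown here because Dmp1 and Phex separated the groups and Mepe, a near neighbour of Dmp1, did not. The sequences come from RefSeq on GRCm38.p6 and run from 250 bases before to 50 bases after an annotated start. Entries were found for 7 of the 7 genes, with 2 starts for Dmp1. Capitals mark matches on either strand to the core motif of RUNX factors, TGTGGT, or to the TATA box letters TATAAA.
Dmp1, first start, chr5:104197325-104197624, plus strand: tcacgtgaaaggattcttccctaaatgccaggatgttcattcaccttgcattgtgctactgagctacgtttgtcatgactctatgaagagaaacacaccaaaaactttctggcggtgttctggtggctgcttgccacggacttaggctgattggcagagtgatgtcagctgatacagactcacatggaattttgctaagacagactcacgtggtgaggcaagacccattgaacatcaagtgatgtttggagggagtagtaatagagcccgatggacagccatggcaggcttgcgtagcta
Dmp1, second start, chr5:104202367-104202666, plus strand: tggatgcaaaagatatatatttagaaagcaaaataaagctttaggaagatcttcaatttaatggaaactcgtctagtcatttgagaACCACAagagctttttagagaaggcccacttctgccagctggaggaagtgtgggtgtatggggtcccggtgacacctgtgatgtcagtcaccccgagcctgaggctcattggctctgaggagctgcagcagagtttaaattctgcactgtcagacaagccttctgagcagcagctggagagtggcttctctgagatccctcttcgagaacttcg
Phex, chrX:157415237-157415536, minus strand: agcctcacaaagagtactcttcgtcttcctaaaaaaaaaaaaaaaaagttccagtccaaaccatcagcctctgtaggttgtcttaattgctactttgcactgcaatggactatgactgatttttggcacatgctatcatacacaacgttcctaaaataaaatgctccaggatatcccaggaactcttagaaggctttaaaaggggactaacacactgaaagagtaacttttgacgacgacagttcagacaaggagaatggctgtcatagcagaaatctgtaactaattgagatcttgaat
Mepe, chr5:104325079-104325378, plus strand: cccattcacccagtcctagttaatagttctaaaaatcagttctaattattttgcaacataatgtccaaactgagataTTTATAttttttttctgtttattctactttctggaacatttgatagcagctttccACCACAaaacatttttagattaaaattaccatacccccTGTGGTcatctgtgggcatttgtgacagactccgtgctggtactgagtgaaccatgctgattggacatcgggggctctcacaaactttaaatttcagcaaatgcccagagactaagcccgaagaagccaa
The second Dmp1 start had 1 RUNX match, Mepe had 2 with 1 TATA match, and Phex and the first Dmp1 start had 0 of either. Among the genes not shown, Enpp1 had 1 RUNX match and 0 TATA matches, and Sost, Fgf23 and Pdpn had 0 of either. TGTGGT occurred in 16.8% and TATAAA in 13.6% of 32851 RefSeq windows of the same length. TGGGAA, the core motif of the Notch cofactor RBPJ (25.6% of windows), and the AP-1 motif TGANTCA (7.81%) were also searched on both strands and were not found in any window of the 7 genes. A match is only a run of letters, and the arrays measured no binding.

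Mepe encodes another phosphoprotein of the bone matrix, a relative of DMP1. Its signal varied more between mice of a group than between the groups. The log2 values were 0.85, -0.80 and 1.00 in mutants 1 to 3, against -1.06, 0.60 and 1.57 in controls 1 to 3. Both groups thus held high and low arrays, with control 1 the lowest and control 3 the highest of the 6. In intensity units these 2 extremes were 284.0 and 1515, a 6.19-fold span. The mean was 0.35 ± 1.00 in mutants and 0.37 ± 1.33 in controls (SD, n = 3 each). The difference of -0.02 (SE 0.76, unadjusted limma p 0.981) had a 95% interval of -1.86 to 1.82, so the data exclude neither a fall nor a rise of more than 3-fold. Its sign changed with normexp background correction or quantile scaling and with the array left out: leaving out control 1 gave -0.73, leaving out control 3 gave 0.58, leaving out mutant 2 gave 0.56, and leaving out both control 1 and mutant 2 gave -0.16.

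The pooled SD within groups was 1.18 for Mepe and 1.05 for Dmp1, larger than that of 98.4% and 97.7% of all features. It was 0.48 for Phex, 0.36 for the brighter Pdpn probe, 0.23 for the bright Fgf23 probe and 0.18 for Enpp1, against a median of 0.21 over all features. Without mutant 2 the pooled SD was 0.38 for Dmp1 and 1.09 for Mepe, so the spread of Dmp1 rested on that array and that of Mepe did not.

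Dmp1 and Mepe belong to a row of related genes on chromosome 5 that encode the SIBLING proteins, acidic matrix proteins of bone and tooth. In order along the chromosome these are Dspp, Dmp1, Ibsp, Mepe and Spp1. Dspp, the dentin phosphoprotein gene, was well above background on 1 of 6 arrays and was not tested. Ibsp, encoding bone sialoprotein, read 5.51, 3.70 and 6.05 in mutants 1 to 3, against 5.02, 6.36 and 6.57 in controls 1 to 3, a difference of -0.90 (SE 0.69, unadjusted limma p 0.235). Spp1, encoding osteopontin, read 4.44, 2.63 and 4.60 in mutants 1 to 3, against 3.74, 4.68 and 4.87 in controls 1 to 3, a difference of -0.54 (SE 0.58, unadjusted limma p 0.382). Mutant 2 and control 1 were the 2 lowest arrays for Ibsp, Spp1 and Mepe alike. For Dmp1 and Phex, mutant 2 was the lowest array but control 1 lay above every mutant.

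**Figure D2:**
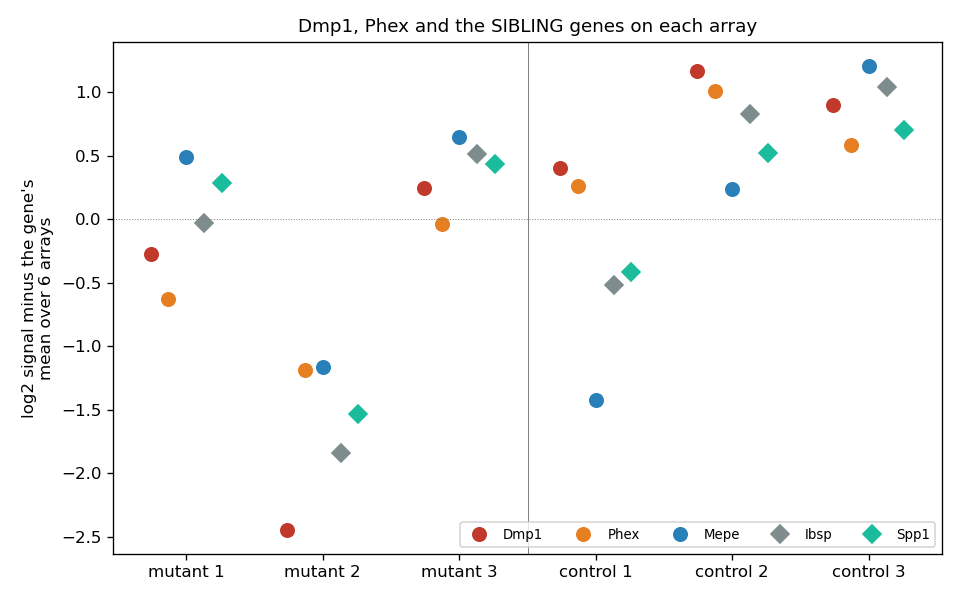
Log2 signal of Dmp1, Phex, Mepe (circles) and the SIBLING genes Ibsp and Spp1 (diamonds) on each array, minus that gene's mean over the 6 arrays, with mutants left of the line and controls right of it. All 5 genes are low on mutant 2, and on control 1 Mepe, Ibsp and Spp1 are below 0 while Dmp1 and Phex are above it.

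Fgf23, the phosphate hormone itself, was represented by 2 probes with the same accession that gave opposite readings. Probe A_55_P1976655 stayed at background on all 6 arrays. It read 3.68, 3.85 and 3.53 intensity units in mutants 1 to 3, against 3.64, 3.85 and 3.62 in controls 1 to 3. Probe A_55_P2169514 read 51502, 46484 and 52122 units in mutants 1 to 3, against 42507, 45923 and 52114 in controls 1 to 3. The second probe was well above background on all 6 arrays. Of 5554 genes with 2 or more probes, 552 (9.94%) had a probe dark on all arrays beside a probe well above background on all arrays. A bright probe as intense as this was rare among them: 13 of the 552, Fgf23 included, had a probe at least as bright. Of all probes compared, 1.61% were brighter. Which of the 2 probes follows Fgf23 mRNA was not tested, and the probe sequences were not used here. The bright probe averaged 6.44 ± 0.21 in mutants and 6.40 ± 0.26 in controls (SD, n = 3 each), a difference of 0.03 (SE 0.18, 95% interval -0.40 to 0.47, unadjusted limma p 0.859) whose sign changed with the scaling. Without mutant 2 and control 1 the difference was -0.0075.

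Sost, the sclerostin gene of mature osteocytes, was not well above background on any of the 6 arrays. Its probe read 4.78, 7.78 and 10.1 intensity units in mutants 1 to 3, against 8.05, 4.32 and 4.19 in controls 1 to 3. The lowest signal among probes called well above background was 14.6 to 16.0 units on the mutant arrays and 15.2 to 16.3 units on the control arrays, above Sost on each. No fold change is given for Sost or for the dark Fgf23 probe, since neither group was well above background. Of the osteocyte genes, then, Dmp1, Phex, Mepe and Pdpn were detected in this cartilage on all arrays, Sost was not detected, and the probes of Fgf23 disagreed.

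**Figure D3:**
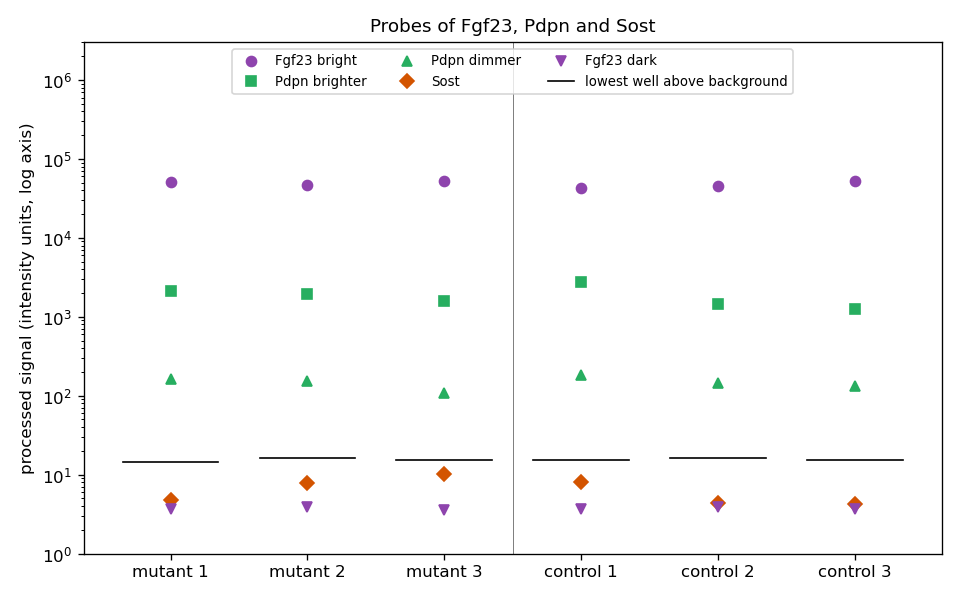
Processed signal in intensity units (log axis) for both probes of Fgf23 and Pdpn and the probe of Sost on each array, with mutants left of the line and controls right of it. Short black lines give the lowest signal called well above background on that array, between 14.6 and 16.3 units; Sost and the dark Fgf23 probe lie below it on all 6 arrays and the bright Fgf23 probe reads 42507 units or more.

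Enpp1 encodes the ectoenzyme that makes pyrophosphate from nucleotides outside the cell. Its log2 signal was -0.82, -0.64 and -1.13 in mutants 1 to 3, against -0.92, -0.76 and -0.78 in controls 1 to 3. Mutants held both the highest and the lowest array. The mean was -0.86 ± 0.25 in mutants and -0.82 ± 0.09 in controls (SD, n = 3 each), and the difference of -0.05 (SE 0.16, unadjusted limma p 0.778) had a 95% interval of -0.42 to 0.33. It was -0.21 without mutant 2 and control 1, where the groups did not overlap (unadjusted limma p 0.213), and its sign changed with normexp background correction and without mutant 3.

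Pdpn had a brighter and a dimmer probe, both well above background on all 6 arrays. The brighter probe read 1.74, 1.72 and 1.62 in mutants 1 to 3, against 2.22, 1.40 and 1.30 in controls 1 to 3. The 3 mutants lay close together between control 1 and the other 2 controls. The mean was 1.69 ± 0.07 in mutants and 1.64 ± 0.51 in controls (SD, n = 3 each), a difference of 0.05 (SE 0.25, 95% interval -0.56 to 0.66, unadjusted limma p 0.841). Without control 1 the difference was 0.34 (unadjusted limma p 0.0321, adjusted p 0.999), and it was 0.33 without control 1 and mutant 2. It turned to -0.07 without control 2 and to -0.12 without control 3. The dimmer probe read -1.97, -1.94 and -2.25 in mutants 1 to 3, against -1.69, -1.96 and -1.96 in controls 1 to 3. Its difference was -0.18 (SE 0.15, unadjusted limma p 0.266), so the 2 probes differed in sign and neither separated the groups.

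**Figure D4:**
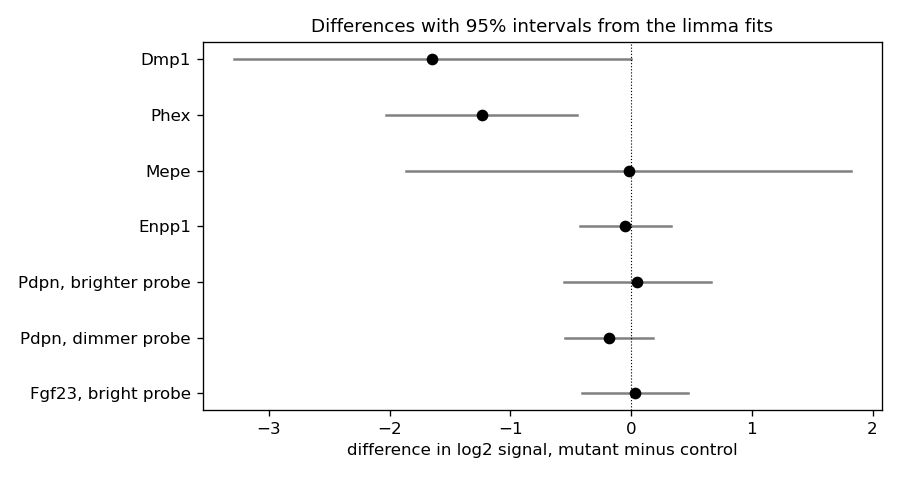
Difference in log2 signal, mutant minus control, with 95% intervals from limma, for the brightest probe of each tested gene and for the dimmer Pdpn probe (n = 3 each). The intervals of Dmp1, which ends at -0.0032, and Phex lie below 0 and those of the other 5 probes include 0; no adjusted p passed the threshold.

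Genes that work with these members were counted in 6 lists written from textbook knowledge. Of 58 genes listed, 52 were tested, of which 21 were below 0 and 31 above 0. At an unadjusted p below 0.05, 0 were lower and 1 was higher, 0 passed the adjusted threshold, and the groups did not overlap for 2 lower and 3 higher genes. The background was 1.89% lower and 1.55% higher at that p, and 3.75% lower and 5.19% higher without overlap, so these shares lie near it.

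Among the enzymes and partners of the SIBLING proteins, 4 of 5 tested genes were below 0 (median -0.54) and 0 passed an unadjusted p of 0.05. Besides Ibsp and Spp1, Fam20a, the cofactor of the secretory kinase FAM20C, differed by -0.60 (SE 0.47), and Fam20c itself by 0.16 (SE 0.17). The difference of Fam20a rested on mutant 2, which read -0.15 against 1.55 to 1.59 on the other mutants and 1.32 to 1.75 on controls.

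Of 12 genes of pyrophosphate and phosphate handling, 4 were below 0 and 8 above 0, with a median of 0.04. Ank, the transporter that exports pyrophosphate and so acts beside ENPP1, read 1.48, 1.04 and 1.30 in mutants 1 to 3, against 1.50, 1.68 and 1.74 in controls 1 to 3. Every mutant was below every control, though mutant 1 by little, and the difference was -0.37 (SE 0.15, unadjusted limma p 0.0520). The lipid enzyme Smpd3 differed by 0.31 (SE 0.27), the transporter Abcc6 by 0.60 (SE 0.38) and the ectoenzyme Enpp3 by -0.63 (SE 0.44). Smpd3 read 5.54 on control 1, against 6.45 to 6.53 on the other arrays. Enpp3 read -3.33 on mutant 2, against -2.05 and -1.64 on the other mutants and -2.05 to -1.42 on controls. Alpl, the alkaline phosphatase that breaks pyrophosphate down, was 4.58 ± 0.05 in mutants and 4.50 ± 0.30 in controls (SD, n = 3 each), with a difference of 0.08 (SE 0.17), and is named here after its value was seen.

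In the FGF23 axis, 8 of 9 tested genes were above 0 with a median of 0.12. Slc34a1, the phosphate cotransporter known from kidney, was the 1 gene at an unadjusted p below 0.05: it read -3.86, -3.94 and -3.62 in mutants 1 to 3, against -4.45, -4.10 and -4.16 in controls 1 to 3, a difference of 0.43 (SE 0.15, unadjusted limma p 0.0280, adjusted p 0.987). The receptors of FGF and parathyroid hormone that chondrocytes carry differed by 0.27 (SE 0.18) for Fgfr3, 0.12 (SE 0.11) for Fgfr1 and 0.28 (SE 0.19) for Pth1r, and of these the groups were separated for Fgfr1. Klotho (Kl), the FGF23 coreceptor, and Cyp24a1, Slc34a2 and Slc34a3 did not pass the filter on dim probes.

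Of 9 genes of the sclerostin and Wnt axis, 6 were above 0 with a median of 0.07. Mef2c, a transcription factor that drives Sost in osteocytes, differed by 0.43 (SE 0.20) and Lef1, a nuclear effector of Wnt signalling, by 0.29 (SE 0.14). The sclerostin receptor Lrp4 differed by -0.47 (SE 0.33) and Sostdc1, a relative of Sost, by 0.36 (SE 0.27). Lrp4 read -1.74 on mutant 2, against -0.63 and -0.53 on the other mutants and -0.63 to -0.33 on controls. Of these 4 genes the groups were separated for Lef1, at 2.66 or more in mutants and 2.66 or less in controls, where mutant 1 and control 3 all but met. Podoplanin's partners were below 0 for 4 of 7 tested genes, with a median of -0.04. The membrane linker moesin (Msn) differed by -0.29 (SE 0.17), the podoplanin receptor Clec1b by -0.26 (SE 0.14), Cd44 by -0.43 (SE 0.45) and the tetraspanin Cd9 by 0.16 (SE 0.14). Cd44 read -0.03 on mutant 2, against 1.56 and 1.47 on the other mutants and 1.05 to 1.75 on controls. Msn was also lowest on mutant 2, at 4.17, against 4.66 and 4.73 on the other mutants.

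Other genes known from osteocytes were split, with 5 of 10 below 0, 5 above 0 and a median of 0.0031. Ptprz1, a receptor phosphatase, differed by -1.19 (SE 0.65), Tnfsf11, the gene of the osteoclast factor RANKL, by -1.17 (SE 0.66), Capg by -0.55 (SE 0.33) and Fbln7 by 0.25 (SE 0.19). None of these 10 passed an unadjusted p of 0.05. Ptprz1, Tnfsf11 and Capg were lowest on mutant 2, at -1.58, -4.38 and 2.83. The other 2 mutants read 0.57 and 1.07 for Ptprz1, -2.02 and -1.89 for Tnfsf11 and 3.89 and 4.08 for Capg.

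Markers of the other cells in the tissue were scored as the mean over a list of log2 signal minus each gene's own mean over the 6 arrays. The 7 tested osteoblast markers, among them Col1a1, Sp7 and Ibsp, scored -0.87 to 0.37 on mutants and -0.28 to 0.37 on controls, so they overlapped, and 5 of 7 were below 0. Bglap had no probe assigned. The 9 chondrocyte markers, with Col2a1 at 9.97 ± 0.12 in mutants and 10.03 ± 0.07 in controls, scored -0.01 to 0.35 on mutants and -0.36 to 0.03 on controls, with 8 of 9 above 0. The 5 hypertrophic chondrocyte markers overlapped, at -0.50 to 0.16 on mutants and -0.34 to 0.42 on controls.

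Of 13 such lists, 3 did not overlap between the groups, all lower in mutants. The 8 osteoclast markers scored -2.08 to 0.09 on mutants and 0.38 to 0.91 on controls, with 8 of 8 below 0. The 8 tested macrophage markers scored -1.72 to 0.07 on mutants and 0.27 to 0.78 on controls, with 8 of 8 below 0. The 5 endothelial markers scored -1.05 to 0.11 on mutants and 0.15 to 0.47 on controls, with 4 of 5 below 0. There mutant 1, at 0.11, lay close below control 3, at 0.15. Mutant 2 had the lowest score of the 6 arrays in all 3, as it had the lowest signal for Dmp1 and Phex. The mean difference in score was -1.36 for osteoclasts, -1.10 for macrophages and -0.62 for endothelium, and -0.66, -0.52 and -0.25 for these lists without mutant 2. The part of these cells in the Dmp1 and Phex results was not tested. The neutrophil, erythroid and B cell lists overlapped, with control 1 highest in all 3 and control 3 lowest for the erythroid and B cell lists. In these lists 7 of 7 neutrophil, 6 of 6 erythroid and 5 of 5 B cell genes were below 0, with median differences of -1.67, -1.04 and -1.59. Fibroblast, muscle and adipocyte lists overlapped too. In the muscle and adipocyte lists control 1 scored highest and mutant 2 lowest of the 6 arrays. Muscle scored 2.35 on control 1 and -2.50 on mutant 2, and adipocytes scored 0.99 and -1.77. The part of such tissue in the differences of the members was not tested. Lymphatic endothelium, another source of Pdpn, had Lyve1 and Flt4 among the tested genes and Prox1 dim; the pair scored -1.02 to 0.23 on mutants and -0.31 to 0.67 on controls.

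**Figure D5:**
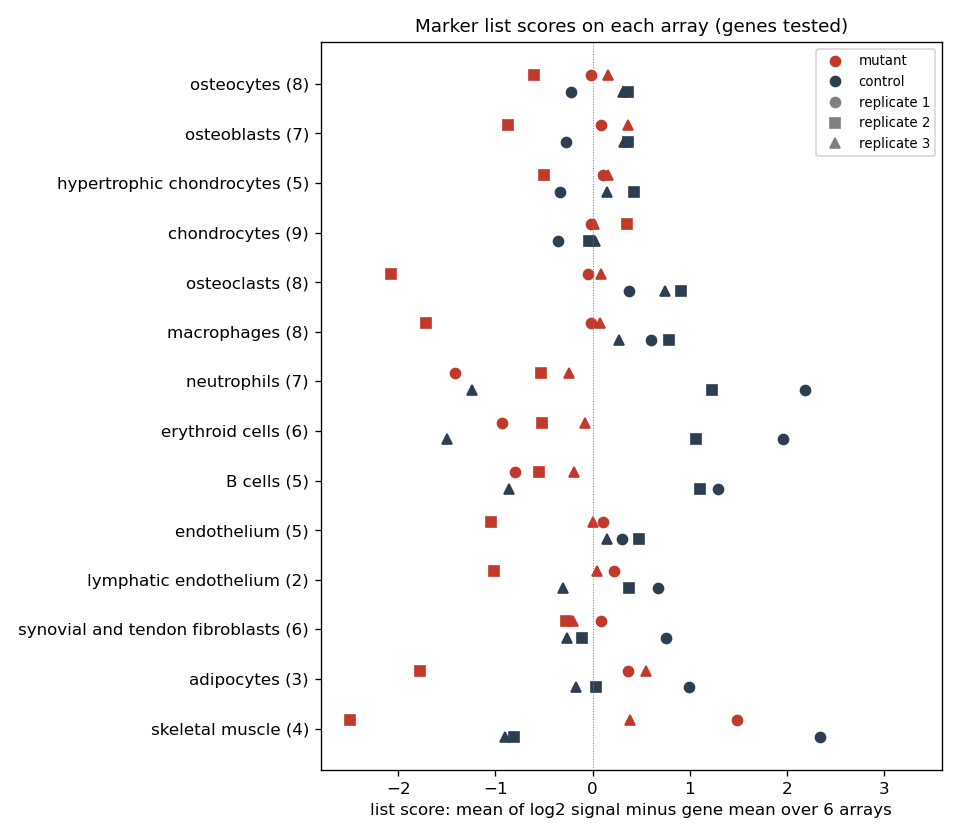
Scores of 14 marker lists on each array, with mutants above controls in each row, symbols for the replicate number and the number of tested genes in parentheses. A score is the mean of log2 signal minus the gene's mean over 6 arrays; osteoclast, macrophage and endothelial scores are lower in every mutant, and those of osteoblasts, hypertrophic chondrocytes and the osteocyte list itself overlap.

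Set against these scores within each array, Dmp1 and Phex gave different readings by list. Each gene was centred on its mean over the 6 arrays and the list score was subtracted, with member genes left out of the lists. Relative to osteoblast markers, Dmp1 was -1.58 to -0.12 on mutants and 0.57 to 0.80 on controls, a difference of -1.37 with no overlap. Phex relative to osteoblast markers was -0.71 to -0.32 on mutants and 0.25 to 0.65 on controls, a difference of -0.96 with no overlap. Both genes also stayed separated relative to the chondrocyte and hypertrophic chondrocyte lists. Relative to osteoclast markers the groups overlapped: Dmp1 was -0.37 to 0.16 on mutants and 0.02 to 0.26 on controls, a difference of -0.29, and Phex was -0.58 to 0.89 on mutants and -0.17 to 0.11 on controls, a difference of 0.12. Relative to macrophage markers the differences were -0.54 for Dmp1 and -0.13 for Phex, again with overlap. Over the 13 lists, the separation was kept relative to 3 for Dmp1 and 4 for Phex, the added list being endothelium. Overlap did not always go with a small difference: relative to fibroblast, muscle, lymphatic, adipocyte and endothelial lists Dmp1 overlapped but differed by -1.39, -1.23, -1.15, -1.08 and -1.03. Phex overlapped but differed by -0.98 relative to fibroblasts, -0.82 to muscle, -0.74 to lymphatic endothelium and -0.67 to adipocytes. The osteoclast, macrophage and endothelial scores were themselves lower in every mutant, so subtracting them takes away part of any such difference in advance. A list with widely spread scores can also bring overlap by its spread. Kept or lost separation therefore cannot show which cells the differences come from, and that was not tested. These comparisons were added after the values were seen and carry no test.

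For each member the 2 genes with the highest correlation of log2 signal over the 6 arrays were taken among 13962 candidates, as a description. With 6 arrays such values are high by selection. For Dmp1, 311 candidates exceeded 0.95, and for each of the other members 45 to 63 did. Mutant 2 lay far below all other arrays for Dmp1, and its part in the larger count was not tested. For Dmp1 they were Snx20 and Nfam1 (r = 0.999 each), and for Phex they were Exoc3l4 (r = 0.992) and Spic (r = 0.990). Spic differed by -1.82. For Mepe the pair was Hddc3 and Prss50, for the bright Fgf23 probe Fbxo31 and Itgam, for Pdpn Serinc2 and Dnaja4, and for Enpp1 Rheb and Mb21d2. All 12 correlations lay between 0.990 and 0.999.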

How the data were processed

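Spots were quantified with Agilent Feature Extraction 10.7.1.1 on an mm9 design, per the file headers. What the authors deposited for each spot is linear intensity: a background-subtracted processed signal, and medians of the raw spot and its local background. A second table of the authors holds ratio values, each a signal over its array's 75th percentile judging by the numbers. Its making is not given in the sources used here. It served as an alternative. Accessions were matched to RefSeq symbols of GRCm38.p6 (27656 of 55681 probes). That build differs from mm9, so only the RefSeq start regions carry coordinates.

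Without outlier spots, log2 of the processed signal was taken and each array's 75th percentile over non-control spots was subtracted. Probes well above background on at least 3 of 6 arrays were kept (35228), with the brightest probe per gene, giving 25494 features. Groups came from the sample titles, and the series text states that replicates are separate mice. The 2 groups were tested with limma (version 3.58.1, R version 4.3.3), both sides, and p-values were adjusted by Benjamini-Hochberg over the whole set of features, with 0.05 as the threshold. The dimmer Pdpn probe was fitted among all 35228 passing probes. Dmp1 and the other members, the lists and the tests were chosen with earlier results of these data known. Named genes were the members, Adam10, Col2a1, up to 4 genes per list with the smallest p and the 2 most correlated genes per member; markers and other genes were named after their values were seen. The number of arrays limits the precision.

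The alternatives were normexp correction (offset 50, on median signals because the files hold no mean signal) with percentile or quantile scaling, quantile scaling, no filter or a filter on all 6 arrays, the mean over probes, array weights, a variance trend with robust eBayes, the replicate number as a block, the authors' table, the first slide row, the 4 arrays with Y-linked Ddx3y signal, and leaving out arrays. Values without mutant 2 for member counts, SDs and marker scores were added after seeing the data. Deviations of same-numbered arrays correlated at 0.21, 0.06 and -0.16 for numbers 1 to 3. Those of differently numbered arrays ran from -0.23 to 0.25. These values gave no sign that the numbers pair the mice, but cannot exclude it.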

Additional observations from a re-analysis of the deposited data

How the results depend on the processing

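Dmp1 and Phex kept a difference below 0 and groups that did not overlap in all 19 alternatives. For most of these that outcome was fixed in advance. Leaving out arrays, or changing the filter or the model, reuses signals that were already separated on all arrays. Only the normexp, quantile scaling and authors' table settings could have changed it. No alternative brought a member past the adjusted threshold. Dmp1 ran from -2.39 to -0.84 with an unadjusted p below 0.05 in 10 of 19, and Phex from -1.70 to -0.95 with such a p in 19 of 19; the smallest adjusted p was 0.223 for Dmp1 and 0.163 for Phex, both with array weights. Leaving out single arrays gave -2.18 to -0.84 for Dmp1, -1.53 to -0.95 for Phex, -0.73 to 0.58 for Mepe, -0.086 to 0.17 for Fgf23, -0.12 to 0.34 for Pdpn and -0.16 to 0.085 for Enpp1.

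The 4 genes near 0 changed sign in some settings, and the cause was not tested. Mepe turned to 0.0021 with normexp and percentile scaling, 0.016 with normexp and quantile scaling, 0.0073 with quantile scaling, 0.091 with array weights and 0.48 on the first slide row, and its largest move was to -1.06 on arrays with Y-linked signal. Fgf23 turned to -0.034 with normexp and quantile scaling, -0.057 with quantile scaling, -0.014 with array weights, -0.051 on the first slide row, -0.20 on arrays with Y-linked signal and -0.0075 without control 1 and mutant 2. Enpp1 turned to 0.011 with normexp and percentile scaling, 0.010 with normexp and quantile scaling and 0.033 on arrays with Y-linked signal. Pdpn turned to -0.0071 with normexp and quantile scaling and to -0.065 with the mean over its probes, and the arrays with Y-linked signal gave 0.38 with separated groups (unadjusted p 0.0448). The count of members below 0 was 4 in most settings, but 2 with normexp and percentile scaling. It was 5 with the mean over probes and without control 1 and mutant 2, and 3 to 5 when single arrays were left out.

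With array weights limma called 4 features at the adjusted threshold, against 0 in the main setting, and 0 were called when any single array was left out. At an unadjusted p below 0.05 with a 2-fold difference there were 187 features (159 lower and 28 higher). They numbered 68 and 53 with normexp and percentile or quantile scaling (0 of them higher), 491 without the filter (310 lower and 181 higher), 123 with the filter on all 6 arrays, 540 with array weights (337 lower and 203 higher), 358 on arrays with Y-linked signal, 370 without control 1 and mutant 2 (88 lower and 282 higher), and 86 to 398 when single arrays were left out. With the replicate block that count was 149, and the unadjusted p was 0.0648 for Dmp1 and 0.0204 for Phex; the block changed no call at the adjusted threshold. Sost and the dark Fgf23 probe were not well above background on any array, which limits what can be said of them, and no fold is given for them under any alternative, the one without the filter included.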
